A study of Mus with 8 samples.

Results

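In skin, fatty acids and triglycerides are made above all by the adipocytes of dermal fat and the sebocytes of the sebaceous gland. In textbook biochemistry, citrate leaves the mitochondrion, is split to acetyl-CoA, carboxylated to malonyl-CoA and lengthened to palmitate, and the fatty acids are then joined to a glycerol backbone that comes from glucose or from pyruvate. Insulin and the transcription factors SREBP-1c, ChREBP and LXR are known to drive this programme.

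The genes described here are 10 of this programme, chosen by name: Acly, Acaca, Fasn and Thrsp of fatty acid synthesis, Pcx, Pck1 and Gpd1 of the pyruvate and glycerol supply, Agpat2 and Dgat2 of triglyceride assembly, and Slc2a4 of glucose uptake. For each gene the single-symbol probeset with the highest mean over all arrays was read. All 10 were named in the deposited tables and all 10 passed the filter on dim genes, out of 14980 genes with such a probeset and 11235 genes tested.

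The levels were measured in skin of male C57BL6 mice whose hair had been trimmed and removed. The labels give an age of 6 weeks before acclimatisation in one place and 7 weeks in another. Mice received, on the skin for 20 days, 1% minoxidil (a vasodilator and hair-growth drug, the positive control), 1% keratin (the structural protein of hair), 1% microsphere keratin, or MilliQ water, called untreated here. Each of the 4 groups had 2 Affymetrix arrays numbered 1 and 2, against 5 mice per group in the labels, which do not say whether an array is an animal, a pool or a repeat. P-values therefore measure only the spread between these arrays, which may be technical, and the number of arrays limits the precision. Values are linear array intensities, and a level of one probeset cannot be set against that of another.

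Array quality touches every value below. Median intensity was 35.9 to 37.7 in the 8 arrays. Thrsp, Dgat2, Agpat2, Pck1 and Pcx read close to these medians, with means at percentiles 39.5 to 48.8 of the named genes. Narrow ranges of these genes are ranges of intensity and may not be those of the transcript. Across probesets, minoxidil array 1 had r = 0.372 to 0.440 with the other arrays, and the other 7 had 0.891 to 0.987 among themselves. The 3′ beta-actin control probeset read 47.2 in minoxidil array 1, 1448 to 1883 in 6 arrays, and 656 in untreated array 1. Krt5, a keratin of the basal epidermis, read 163 in minoxidil array 1 and 258 to 580 in the other 7. The counts of higher genes against untreated skin, and several of the differences that turn or move without minoxidil array 1 or untreated array 1, are given with and without the array.

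No lipogenic gene passed the test in any comparison. After Benjamini-Hochberg adjustment over all 11235 genes, limma called 0 of the 10 genes and 0 genes in all (0%) in each of the 4 comparisons, those of the treatments with untreated skin and that of microsphere keratin with keratin. None of the 10 had an unadjusted p below 0.05. Over all genes 49 did with minoxidil (0.436%), 41 with keratin (0.365%) and 10 with microsphere keratin (0.0890%), and 14 between microsphere keratin and keratin (0.125%). The moderated F test over all groups called 0 genes, with 15 under that unadjusted p. What follows describes the values of the 10 genes and how they varied from array to array.

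**Figure D1:**
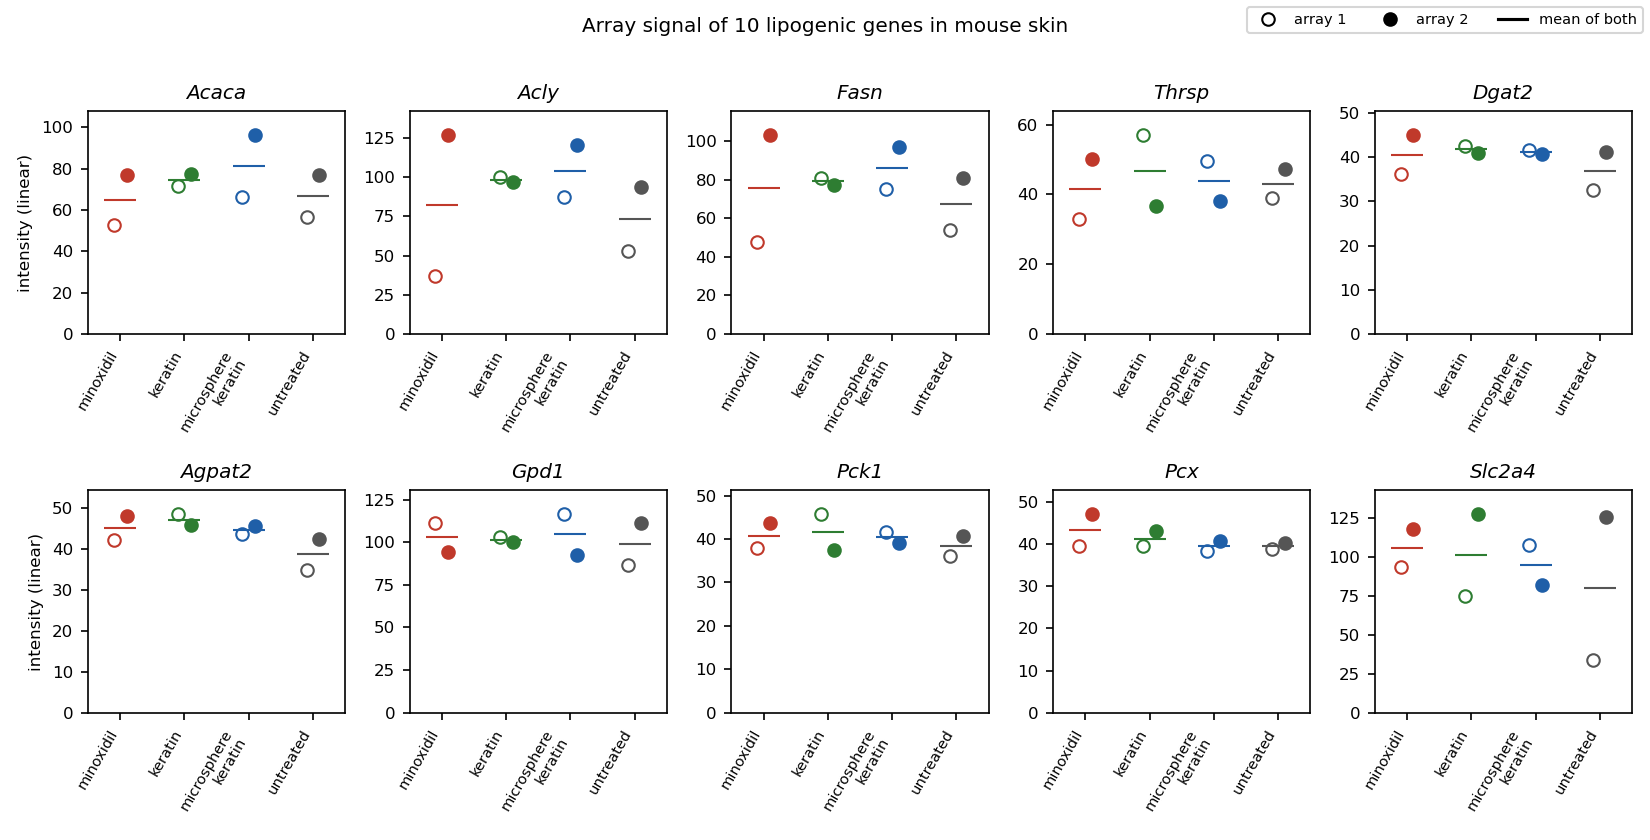
Linear intensity of each gene (vertical axis, starting at 0) in the 4 groups, with open circles for array 1, filled circles for array 2 and a bar at their mean. Untreated array 1 is the lowest of the 7 arrays other than minoxidil array 1 for 8 of the 10 genes, and Slc2a4 in untreated skin spans 33.9 to 125.

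Acly, ATP citrate lyase, makes the cytosolic acetyl-CoA from which fatty acids are built. It read 37.1 and 127 in minoxidil arrays 1 and 2, 99.8 and 96.8 in keratin arrays 1 and 2, and 87.4 and 121 in microsphere keratin arrays 1 and 2, against 53.0 and 93.6 in untreated arrays 1 and 2. Both keratin arrays lay above both untreated arrays, while the minoxidil and microsphere keratin arrays overlapped the untreated ones. The mean log2 level of Acly was 6.62 ± 0.03 in keratin-treated and 6.14 ± 0.58 in untreated skin (SD, n = 2 each), and the difference was 0.48 ± 0.59 (SE, limma adjusted p = 1.00). Microsphere keratin differed from untreated skin by 0.55 ± 0.59 (SE), with a 95% interval of -0.80 to 1.89. The Acly differences were 0.07 with keratin and 0.14 with microsphere keratin when untreated array 1 was left out. The minoxidil difference was -0.04 with both arrays and 0.85 without minoxidil array 1. With both arrays it was 0.02 by the mean of the Acly probesets and 0.04 by the second-brightest one. Its direction therefore changed with the array and with the probeset.

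Acaca, acetyl-CoA carboxylase 1, commits acetyl-CoA to fatty acid synthesis. Its intensity was 52.9 and 77.0 in minoxidil arrays 1 and 2, 71.4 and 77.2 with keratin, and 66.2 and 96.3 with microsphere keratin, against 56.8 and 76.8 in untreated arrays 1 and 2. The groups overlapped in all 3 comparisons with untreated skin. The highest value was that of microsphere keratin array 2. Acaca differed by 0.27 ± 0.35 (SE) on the log2 scale with microsphere keratin, by 0.22 in the number 1 pair and by 0.33 in the number 2 pair. This difference was 0.06 without untreated array 1.

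Fasn, fatty acid synthase, assembles palmitate from malonyl-CoA. It read 48.0 and 103 in minoxidil arrays 1 and 2, 81.2 and 77.2 with keratin, and 75.1 and 97.2 with microsphere keratin, against 54.1 and 81.0 in untreated arrays 1 and 2. Minoxidil array 2 was the highest and minoxidil array 1 the lowest. The microsphere keratin difference was 0.37 ± 0.43 (SE), with 0.47 and 0.26 in the number 1 and number 2 pairs, and that of keratin was 0.26 ± 0.43 (SE), with 0.59 and -0.07 in those pairs. They were 0.08 with microsphere keratin and -0.03 with keratin without untreated array 1. Fasn followed Acly closely from array to array. Over the 7 arrays other than minoxidil array 1, which share the platform and the same unstated normalization, Fasn and Acly correlated at r = 0.99 and Acly and Acaca at 0.85, given as descriptions.

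Thrsp, known as Spot 14, is a thyroid hormone-responsive protein of lipogenic tissues. It read 33.1 and 50.2 in minoxidil arrays 1 and 2, 57.0 and 36.5 with keratin, and 49.5 and 38.0 with microsphere keratin, against 39.0 and 47.2 in untreated arrays 1 and 2. The 2 arrays of each treatment lay on opposite sides of the untreated mean. For Thrsp the number 1 and number 2 pairs gave log2 differences of 0.55 and -0.37 with keratin, and of 0.34 and -0.31 with microsphere keratin. The group differences were 0.09 with keratin and 0.02 with microsphere keratin, and -0.05 and -0.12 without untreated array 1. Its order of arrays differed from that of Acly and Fasn, with r = 0.26 and 0.27 over 7 arrays.

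The genes that supply oxaloacetate and glycerol backbone spanned smaller ranges of intensity, and Pcx and Pck1 read close to the array medians. Pcx, pyruvate carboxylase, makes oxaloacetate for citrate synthesis. It read 39.4 and 47.1 in minoxidil arrays 1 and 2, 39.4 and 43.1 with keratin, and 38.4 and 40.8 with microsphere keratin, against 38.8 and 40.3 in untreated arrays 1 and 2. Its highest over lowest value was 1.23 over the 7 arrays, and its microsphere keratin difference was 0.00 ± 0.13 (SE). Pck1, the cytosolic phosphoenolpyruvate carboxykinase, feeds glyceroneogenesis in fat. It read 37.9 and 43.7 with minoxidil, 45.8 and 37.5 with keratin, and 41.7 and 39.1 with microsphere keratin, against 36.1 and 40.7 without treatment. Groups overlapped for both genes in every comparison with untreated skin. Pck1 and Thrsp had like profiles, with r = 0.93 over 7 arrays.

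Gpd1, the cytosolic glycerol-3-phosphate dehydrogenase, turns a glycolytic intermediate into glycerol 3-phosphate. The probeset used read 111 and 94.3 in minoxidil arrays 1 and 2, 103 and 100 in keratin arrays 1 and 2, and 117 and 92.6 in microsphere keratin arrays 1 and 2, against 86.5 and 111 in untreated arrays 1 and 2. It was one of the few readings of minoxidil array 1 near the top, ranking 7 of 8 from the lowest. Its differences from untreated skin were 0.06, 0.05 and 0.08 for minoxidil, keratin and microsphere keratin, each with an SE of 0.43. Without untreated array 1 they turned to -0.12, -0.13 and -0.10 in the same order.

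Agpat2 and Dgat2 act at the assembly of triglyceride, the first acylating lysophosphatidic acid and the second adding the last fatty acid. Agpat2 read 42.1 and 48.0 in minoxidil arrays 1 and 2, 48.5 and 45.7 with keratin, and 43.6 and 45.6 with microsphere keratin, against 34.7 and 42.5 in untreated arrays 1 and 2. Both arrays of each keratin treatment lay above both untreated arrays, and minoxidil array 1 lay just below untreated array 2. Agpat2 had the smallest unadjusted p of the 10 genes against untreated skin, 0.0931 for keratin (limma adjusted p = 1.00). The log2 differences were 0.23, 0.29 and 0.22 for minoxidil, keratin and microsphere keratin, each with an SE of 0.15, and without untreated array 1 they were 0.08, 0.15 and 0.07. Dgat2 read 36.1 and 45.0 with minoxidil, 42.5 and 41.0 with keratin, and 41.6 and 40.7 with microsphere keratin, against 32.6 and 41.1 in untreated arrays 1 and 2. The number 2 pairs of keratin and microsphere keratin differed by 0.00 and -0.02 on the log2 scale, and untreated array 1 was the lowest of all 8.

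Slc2a4, the insulin-responsive glucose transporter GLUT4 of fat and muscle, had the widest range of the 10 genes. It read 93.1 and 117 in minoxidil arrays 1 and 2, 74.7 and 127 in keratin arrays 1 and 2, and 108 and 81.8 in microsphere keratin arrays 1 and 2, against 33.9 and 125 in untreated arrays 1 and 2. Untreated array 1 was the lowest and untreated array 2 close to the highest. The highest value was 3.75 times the lowest over the 7 arrays, against 1.23 to 2.39 for the other 9 genes. The differences from untreated skin were 0.68 with minoxidil, 0.58 with keratin and 0.52 with microsphere keratin, each with an SE of 0.62. Without untreated array 1 they were -0.26, -0.36 and -0.42, so that this array decided the direction of all 3.

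**Figure D2:**
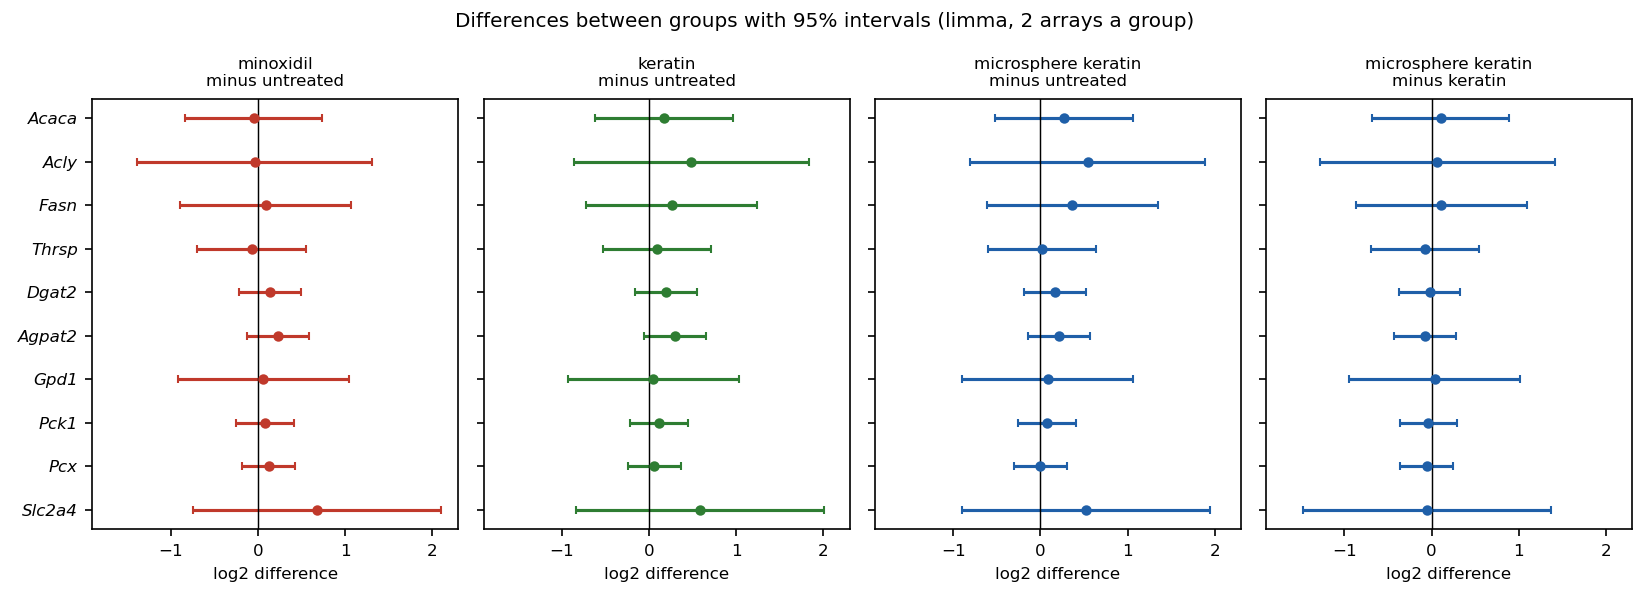
Log2 differences between groups (horizontal axis) for the 10 genes, with points at the limma estimate and bars at its 95% interval. Every interval includes 0, and those of Slc2a4 and Acly are the widest.

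As a group, the 10 genes were mostly higher with both keratin treatments, and so were most genes on the arrays. Of the 10, 7 were higher with minoxidil, 10 with keratin and 10 with microsphere keratin, against 45.6%, 75.8% and 75.9% of all genes tested. The median log2 differences of the 10 were 0.09, 0.18 and 0.19, beside -0.02, 0.10 and 0.10 over all genes. The keratin arrays did not overlap the untreated ones for 2 genes, Acly and Agpat2, both higher, where 20.0% of all genes did so. For microsphere keratin it was 1 gene, Agpat2, with 14.7% of all genes, and for minoxidil 0 genes, with 7.49%. None of the 10 was lower without overlap, where 4.31% of all genes were with minoxidil, 5.25% with keratin and 5.23% with microsphere keratin. After quantile normalization the genes not overlapping over all those tested were 1609 higher and 1287 lower for keratin, where the unchanged values gave 2245 and 590. For minoxidil they were 837 higher and 1287 lower, where the unchanged values gave 842 and 484. For microsphere keratin they were 1279 higher and 1004 lower, where the unchanged values gave 1646 and 588. Of the 10 genes, 3 with keratin and 3 with microsphere keratin were then higher without overlap, and with minoxidil 1 was higher and 1 lower. With the mean of a gene's probesets or the second-brightest one the count was 1 for keratin and 2 for microsphere keratin. Over all 11235 genes tested, the counts with the second-brightest probesets of the 10 were 2244 and 1647. The second Acly probeset overlapped with keratin.

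The pattern rested on untreated array 1. Each gene was set against its own mean over 7 arrays, minoxidil array 1 left out. In untreated array 1 the median of these deviations was -0.32 on the log2 scale for the 10 genes and -0.21 for all genes tested. Without untreated array 1, 2 of 10 genes were higher with minoxidil, 5 of 10 with keratin and 5 of 10 with microsphere keratin, at medians of -0.16, -0.01 and -0.01, beside 28.5%, 45.3% and 41.4% of all genes tested. Within the number 2 arrays, 8, 5 and 5 of the 10 were higher in the same order, with medians of 0.12, 0.00 and 0.00. Of all 11235 genes tested, 6790, 6096 and 6211 were, with medians of 0.03, 0.02 and 0.02. Within the number 1 arrays, 6, 10 and 9 of the 10 were higher, with medians of 0.05, 0.43 and 0.35. Of all genes tested, 4638, 8902 and 8274 were higher in those arrays, with medians of -0.08, 0.19 and 0.17. With minoxidil 4 of the 10 were higher in both same-numbered pairs, with keratin 5 and with microsphere keratin 4, where 21.3%, 44.2% and 39.7% of all genes were. Acly, Acaca and Agpat2 were higher in both pairs of both keratin treatments, and Fasn in both pairs of microsphere keratin. For Acly with keratin this did not hold with its second probeset, at 61.4 in keratin array 2 against 66.9 in untreated array 2. For Acaca with keratin the number 2 pair differed by only 0.007 on the log2 scale, and the keratin difference was -0.05 without untreated array 1.

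**Figure D3:**
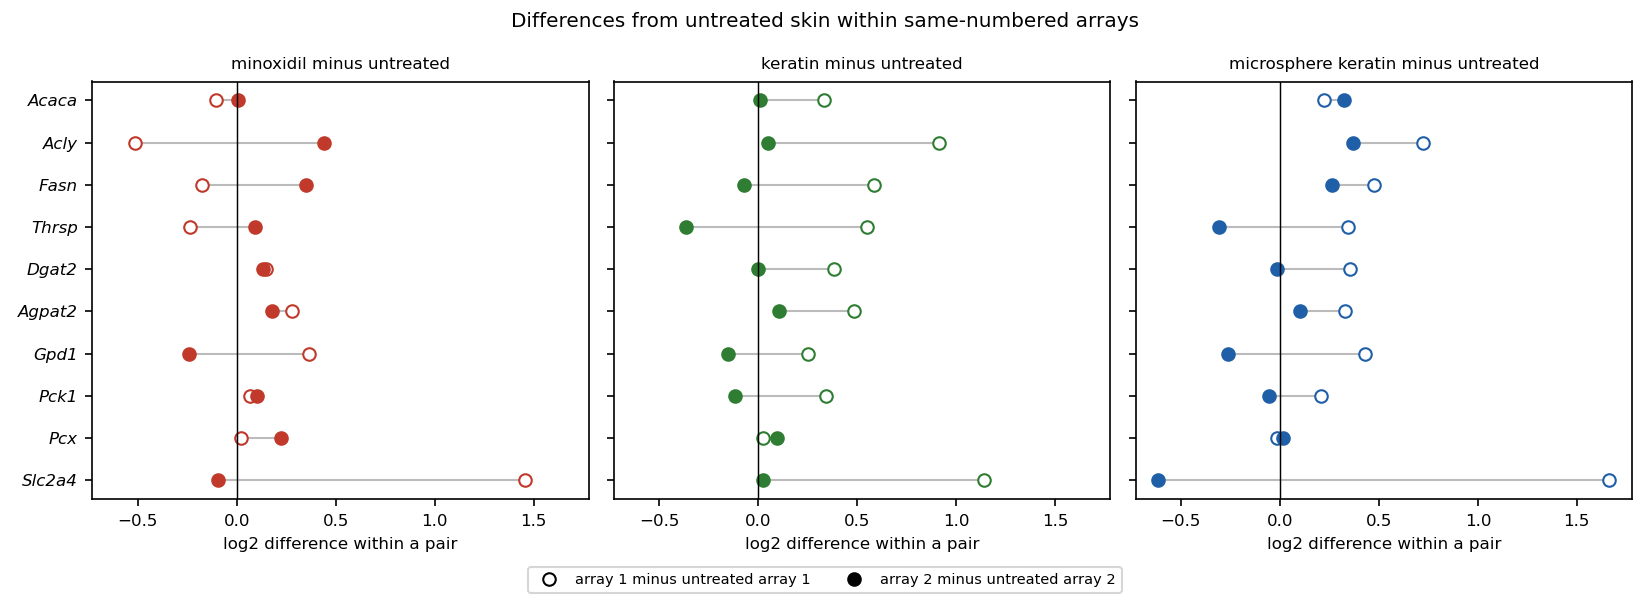
Log2 differences from untreated skin within same-numbered arrays (horizontal axis), with open circles for the number 1 pair and filled circles for the number 2 pair. In the keratin and microsphere keratin panels most open circles lie to the right of 0, while filled circles lie on both sides.

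Minoxidil array 2 was the highest of the 7 arrays for Acly, Fasn, Dgat2 and Pcx. Without minoxidil array 1, 9 of the 10 genes were higher in minoxidil array 2 than the mean of untreated skin, at a median of 0.28, beside 77.7% of all genes tested and a median of 0.16. Without untreated array 1 as well, 8 were higher and the median was 0.12, beside 60.4% and 0.03 over all genes tested. The largest of these differences were 0.44 for Acly and 0.35 for Fasn. A single minoxidil array then stands for its group and is assumed to vary like the others.

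Microsphere keratin and keratin were applied at the same strength, 1%, for the same 20 days. The 10 genes differed between them by a median of -0.03 on the log2 scale, beside -0.01 over all genes, with 4 higher and 6 lower. Agpat2 alone did not overlap, lower with microsphere keratin at -0.08 ± 0.15 (SE), where 10.5% of all genes were lower without overlap. Without overlap 0 of the 10 were higher (5.11% of all genes), and 0 were higher in both same-numbered pairs (17.2%). The 95% interval was -0.38 to 0.33 for Dgat2 and -0.36 to 0.25 for Pcx, but -1.28 to 1.41 for Acly and -1.48 to 1.37 for Slc2a4. A 2-fold difference of intensity in either direction therefore lies inside the intervals of Acly and Slc2a4 and outside those of Dgat2 and Pcx. Dgat2 and Pcx read close to the array medians, so their narrow intervals do not exclude a 2-fold change in transcript. Slc2a4 was 0.53 higher with microsphere keratin in the number 1 pair, and the number 2 pair gave -0.64. Leaving out 1 array of these groups moved the count of higher genes between 3, without microsphere keratin array 1, and 7, without keratin array 1.

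Levels of the 10 genes were set beside markers of other cell types in each array. Bulk RNA cannot tell fewer cells of a type from less RNA per cell. For Slc2a4 the nearest list was fast skeletal muscle, the thin muscle sheet under mouse skin, whose 10 measured markers had a mean log2 signal of 5.13 and 11.05 in minoxidil arrays 1 and 2, 9.22 and 10.87 with keratin, and 10.48 and 10.17 with microsphere keratin, against 8.27 and 10.87 in untreated arrays 1 and 2. The 10 markers include Acta1, Ckm and Tnni2, genes of the contractile apparatus and its energy supply. Over the 7 arrays other than minoxidil array 1, Slc2a4 correlated with this mean at r = 0.961 (exact permutation p = 0.000992, adjusted p = 0.0397) and rho = 0.893 (exact permutation p = 0.0123, adjusted p = 0.238). Without the 2 arrays farthest from the median muscle level r was 0.898. This was 1 of 40 correlations of the 10 genes with 4 marker lists, and the only one with an adjusted p below 0.05 by r, while none was by rho. The 4 lists were those of muscle, sebaceous gland, white adipocytes and epidermal keratinocytes. The arrays come from 4 treatments and may not be independent, so these p-values are descriptive. Minoxidil array 1 did not follow this order, since its muscle mean was the lowest of all 8 while Slc2a4 read 93.1. The part of muscle in the Slc2a4 differences was not tested.

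Fat, sebaceous and epidermal markers gave weaker relations. The 9 measured sebaceous gland markers had mean log2 signals of 5.37 and 6.68 in minoxidil arrays 1 and 2, 6.29 and 5.82 with keratin, and 6.16 and 6.06 with microsphere keratin, against 5.69 and 5.81 in untreated arrays 1 and 2. Pck1 correlated with them at r = 0.803 (exact permutation p = 0.029, adjusted p = 0.347) and rho = 0.857 (exact permutation p = 0.0238, adjusted p = 0.238), and r was 0.785 without the 2 farthest arrays. With the 8 epidermal keratinocyte markers the highest r was that of Agpat2, at 0.775 (exact permutation p = 0.0272, adjusted p = 0.347). Its rho was 0.857 (exact permutation p = 0.0238, adjusted p = 0.238), and r was 0.339 without the 2 farthest arrays. Of the white adipocyte markers 7 of 10 were measured, with means of 5.05 and 7.65 in minoxidil arrays 1 and 2, 8.19 and 7.84 with keratin, and 8.04 and 7.33 with microsphere keratin, against 7.71 and 7.78 in untreated arrays 1 and 2. Adipoq, the adipocyte hormone adiponectin, read 31.7 and 59.0 with minoxidil, 182 and 93.7 with keratin and 120 and 65.2 with microsphere keratin, against 82.8 and 83.2 in untreated arrays 1 and 2. Of the 7 markers, 1, 6 and 2 were higher than in untreated skin with minoxidil, keratin and microsphere keratin, with untreated array 1 and without it. Adipoq was among the 2 higher with microsphere keratin, where 5 were lower. Thrsp was highest where the adipocyte mean was highest, in keratin array 1, at r = 0.637 (exact permutation p = 0.126, adjusted p = 0.370) and rho = 0.393 (exact permutation p = 0.396, adjusted p = 0.658). That relation rested on keratin array 1 and microsphere keratin array 2, without which r was 0.107. Fasn correlated with the adipocyte mean at r = -0.311 and rho = -0.393 (exact permutation p = 0.507 and 0.396, adjusted p = 0.676 and 0.658), and r was -0.152 without the 2 farthest arrays. Gpd1 had r = 0.600 and rho = 0.714 (exact permutation p = 0.148 and 0.0881, adjusted p = 0.370 and 0.392), and 0.772 without the 2 farthest. Without Car3, which muscle also expresses, r was 0.544 for Thrsp, -0.477 for Fasn and 0.406 for Gpd1, and -0.260, -0.670 and 0.357 without the 2 farthest arrays. That list was changed after its values were seen. The part of any of these cell types in the differences was not tested.

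**Figure D4:**
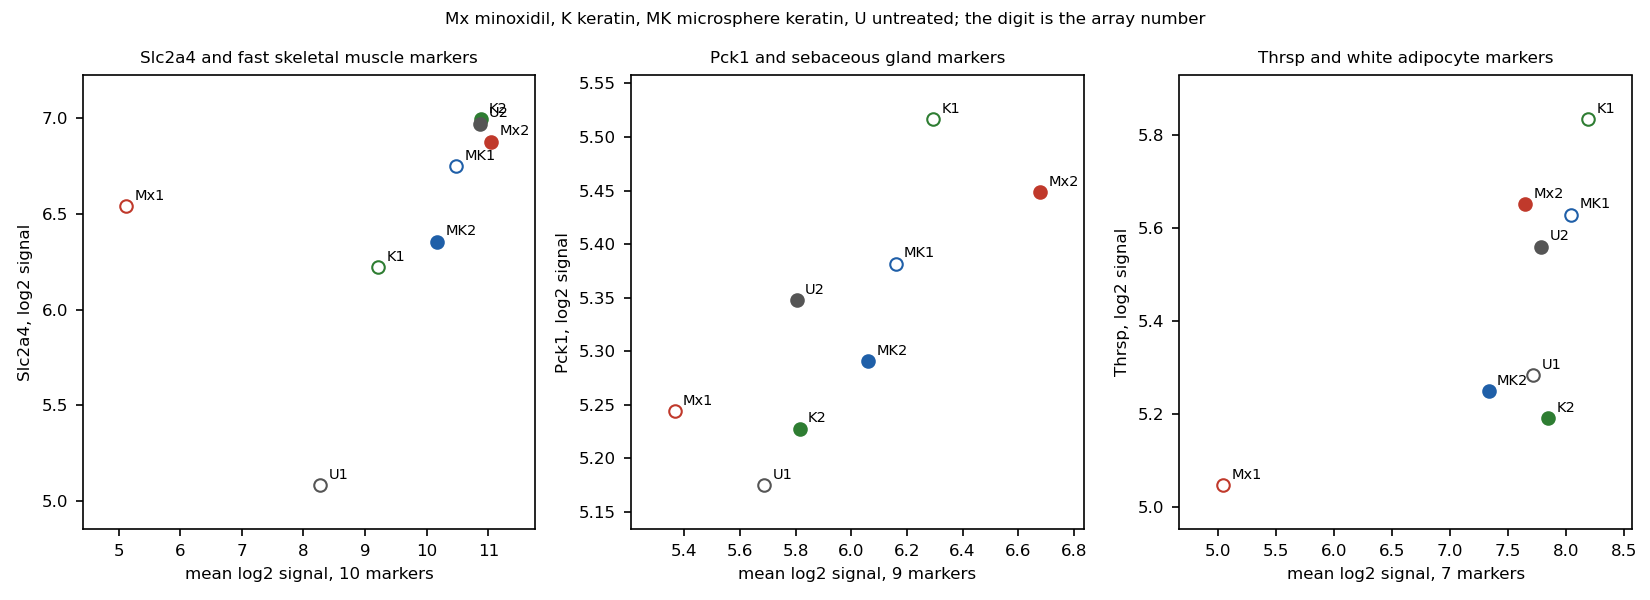
Log2 signal of Slc2a4, Pck1 and Thrsp (vertical axes) against the mean log2 signal of muscle, sebaceous gland and white adipocyte markers (horizontal axes), 1 point per array, open for array 1 and filled for array 2. Slc2a4 follows the muscle mean in 7 arrays, with minoxidil array 1 apart at a muscle mean of 5.13.

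Several genes had more than 1 named probeset, and these did not always tell the same story. Acly, Gpd1, Slc2a4 and Thrsp had more than 1, while the other 6 genes had a single probeset. The Gpd1 probeset used belongs to a class whose probes can match other transcripts, and it correlated with the second-brightest at only r = 0.36 over 7 arrays. That second probeset read 40.3 and 87.7 in minoxidil arrays 1 and 2, 44.5 and 71.3 with keratin, and 65.0 and 57.7 with microsphere keratin, against 43.9 and 83.0 in untreated arrays 1 and 2. It correlated with the muscle marker mean at r = 0.93 over 7 arrays, where the probeset used had 0.49. Gpd1 levels are therefore uncertain. The Acly probeset used is of the same class. With the second-brightest probesets the Gpd1 difference from untreated skin was -0.02 with minoxidil, -0.10 with keratin and 0.02 with microsphere keratin.

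For the other genes the second-brightest probeset correlated with the one used at r = 0.83 to 0.86. The second Acly probeset read 40.4 and 75.0 in minoxidil arrays 1 and 2, 83.0 and 61.4 with keratin, and 72.2 and 73.1 with microsphere keratin, against 42.8 and 66.9 in untreated arrays 1 and 2, and followed the probeset used at r = 0.86. The 2 dimmer Acly probesets had r = 0.34 and -0.17 with it, so Acly levels are uncertain too. For Slc2a4 and Thrsp the second probesets followed the first at r = 0.83 and 0.85. The second Slc2a4 probeset spanned only 36.1 to 53.7 over the 8 arrays and its differences from untreated skin were -0.02 with keratin and -0.06 with microsphere keratin.

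**Figure D5:**
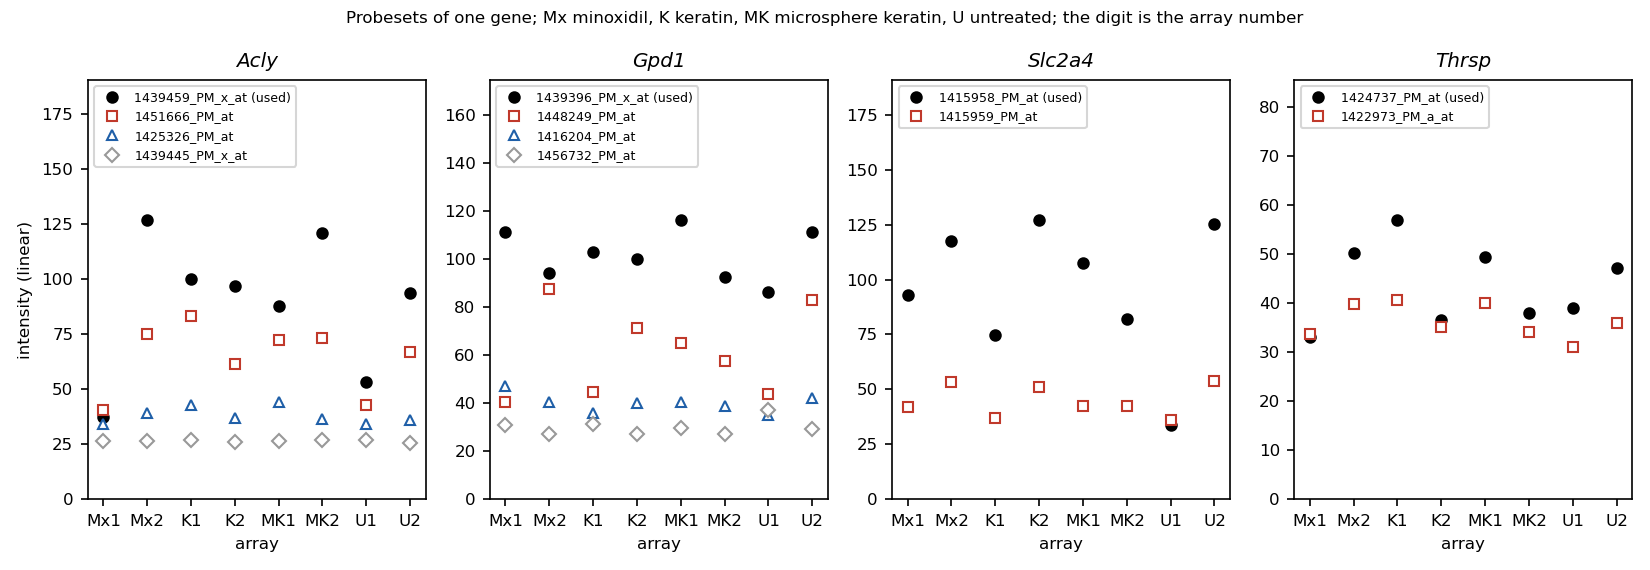
Linear intensity (vertical axis, starting at 0) of every named probeset of Acly, Gpd1, Slc2a4 and Thrsp in the 8 arrays. The filled circles are the probesets used, and for Gpd1 the second-brightest probeset (red squares) runs in another order.

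The authors compared single arrays on a log2 scale of their own, with 1 array on each side and so no replicate check. In the authors' deposited table for keratin array 1, Acly was 13.8-fold higher than in untreated array 1, Thrsp 5.07-fold, Fasn 3.86-fold, Agpat2 2.71-fold, Slc2a4 2.55-fold, Acaca 2.27-fold and Pck1 2.21-fold. For microsphere keratin array 1 the authors' deposited table gave 11.7-fold for Acly, 6.52-fold for Slc2a4, 4.38-fold for Thrsp and 3.45-fold for Fasn. The linear intensities gave 1.65-fold, 3.17-fold, 1.27-fold and 1.39-fold for these genes in the same order. The authors' log2 value for Acly in untreated array 1 was 0.70 in the authors' deposited table, and 5.93 in untreated array 2. Of all probesets listed for keratin array 1 in the authors' deposited table, which holds folds from 2.00 only, 88.1% were higher with treatment. For microsphere keratin array 1 the authors' deposited table with folds from 2.00 had 89.5% higher, and the longer one with folds from 1.30 had 58.5%.

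The number 2 arrays were listed with folds from 1.30, in both directions. The longer list for microsphere keratin array 1, cut at the same fold, also held both directions, with Dgat2 at a signed fold of -1.32. The list for keratin array 1 starts at 2.00, so its directions cannot be set against those of the number 2 arrays. In the authors' deposited table for minoxidil array 2, Pcx was 1.75-fold, Fasn 1.74-fold, Agpat2 1.58-fold, Acly 1.58-fold and Thrsp 1.38-fold higher, and the Gpd1 probeset used was 1.73-fold lower (signed fold -1.73). For microsphere keratin array 2 the authors' deposited table listed Fasn at 1.56-fold, Agpat2 and Acaca at 1.48-fold and Acly at 1.44-fold higher. In the same authors' deposited table Thrsp had a signed fold of -1.87, Slc2a4 -2.12 and the second Gpd1 probeset -2.61. For keratin array 2 the authors' deposited table listed 4 of the 10 genes, Agpat2 at 1.45-fold higher and Pck1, Gpd1 and Thrsp at signed folds of -1.35, -1.84 and -2.02. Across the authors' deposited tables, 41 of 43 rows for the 10 genes had the same sign as the value table. The exceptions were Dgat2 and the Gpd1 probeset used in microsphere keratin array 1, at -1.32 and -1.49 in the authors' deposited table and at log2 differences of 0.35 and 0.43 in the value table.

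Other genes of fatty acid synthesis, elongation and desaturation were read from a list of 21, of which 20 were tested. Limma called 0 of them in any comparison. With microsphere keratin 18 of 20 were higher than in untreated skin at a median of 0.26, and the arrays did not overlap for 8, all higher, where 14.7% of all genes were higher without overlap. Of the 20, 13 were higher at a median of 0.03 without untreated array 1. Scd1, the desaturase that makes oleate, read 286 and 227 in microsphere keratin arrays 1 and 2 against 136 and 154 in untreated arrays 1 and 2, a difference of 0.82 ± 1.06 (SE, limma adjusted p = 1.00). Elovl5 read 201 and 173 against 101 and 127 in the same arrays, and Elovl4 109 and 75.5 against 53.6 and 56.8, both elongases of fatty acids. The sebaceous markers did not overlap in this comparison for 6 of 9, of which 5 were higher, and their part was not tested. The same 3 genes read 495, 355 and 234 in minoxidil array 2 and 64.6, 34.5 and 54.0 in minoxidil array 1. With minoxidil Slc25a1, the carrier that exports citrate from mitochondria, was the single gene of this list without overlap, at 54.9 and 64.9 against 40.4 and 52.2 in untreated arrays 1 and 2. With keratin 18 of 20 were higher at a median of 0.28, and 12 of 20 at a median of 0.08 without untreated array 1. In the number 2 keratin pair 8 of 20 were higher. Without overlap 3 were higher with keratin (20.0% of all genes) and 1 lower (5.25%). The higher ones were Slc25a1 and the acyl-CoA synthetases Acsl4 and Acsl5, and the lower one was Acsl3, another acyl-CoA synthetase. Acsl5 was named after its values were seen.

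Of 16 other glycerolipid synthesis genes 10 were named and 9 tested. Limma called 0 of them. Higher than in untreated skin were 5 with minoxidil, 6 with keratin and 6 with microsphere keratin, at medians of 0.00, 0.08 and 0.14, and without untreated array 1 they were 3, 4 and 1. Gpam, which adds the first fatty acid to glycerol 3-phosphate, read 50.3 and 304 in minoxidil arrays 1 and 2, 111 and 210 with keratin, and 170 and 187 with microsphere keratin, against 105 and 229 in untreated arrays 1 and 2. Its groups overlapped throughout. It was named here after its values were seen.

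Of 15 tested regulators and insulin signalling genes, 7, 12 and 14 were higher with minoxidil, keratin and microsphere keratin than in untreated skin, at medians of -0.01, 0.16 and 0.13, and limma called 0. Without untreated array 1 they were 1, 6 and 5, at medians of -0.21, -0.03 and -0.06. Nr1h2, the nuclear receptor LXR beta, read 54.2 and 58.4 with keratin and 51.5 and 55.9 with microsphere keratin, against 35.2 and 47.0 in untreated arrays 1 and 2. Neither keratin treatment overlapped untreated skin, with differences of 0.47 ± 0.21 and 0.40 ± 0.21 (SE, limma adjusted p = 1.00 for both). Mlxipl, which encodes ChREBP, read 63.4 and 63.3 with keratin against 39.5 and 60.9 in untreated arrays 1 and 2. Srebf1, which encodes SREBP-1, was named after its values were seen and read 67.8 and 95.5 with keratin and 80.3 and 102 with microsphere keratin, against 71.3 and 94.2 in untreated arrays 1 and 2.

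The genes that carry glucose carbon to acetyl-CoA and those that break lipid down were also read. Of 13 genes from glucose to acetyl-CoA and NADPH, 2, 12 and 11 were higher with minoxidil, keratin and microsphere keratin, and limma called 0. Without untreated array 1 they were 1, 4 and 5, and within the number 2 pairs 13, 5 and 5. Of 10 tested genes of lipolysis and fatty acid oxidation, 5, 9 and 9 were higher, and limma called 0. The counts were 1, 4 and 3 without untreated array 1, and 10, 8 and 2 within the number 2 pairs. With keratin, Pnpla2, the first lipase of triglyceride breakdown, read 82.7 and 132 against 72.2 and 80.2 in untreated arrays 1 and 2, a difference of 0.46 ± 0.40 (SE, limma adjusted p = 1.00). With microsphere keratin Mgll, monoacylglycerol lipase, read 128 and 116 against 71.5 and 79.5, a difference of 0.69 ± 0.63 (SE, limma adjusted p = 1.00).

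The 8 other genes whose profile was most like the mean of the 10, by Pearson correlation over the 7 arrays, were Slmap, Gins4, Dennd6a, Mtpap, Smim11, Copa, Emc9 and Commd1, at r = 0.990 to 0.995. These are descriptions over arrays that share a platform. Among those 7 arrays all 8 were lowest in untreated array 1 and highest in minoxidil array 2, as was the mean of the 10 genes. Over all 8 arrays Smim11, Nit1, Per3, Plbd1, Mtpap, Itfg1, Snx15 and Tnrc6a were nearest, at r = 0.984 to 0.992, and Smim11 and Mtpap were in both sets.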

How the data were processed

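RNA of the 8 skin samples was read on Affymetrix arrays. The authors deposited a value table of linear intensity for 45141 probesets. The submitters' processing notes name Affymetrix Expression Console, Transcriptome Analysis Console and RMA, with no version, and how this table was scaled is not given. In the 6 comparison tables that the authors deposited, each condition has a log2 value, and a signed fold serves as a score, below 0 where treated skin was lower. In 1 of them the deposited p-values are all 1. The table named for minoxidil array 1 has microsphere columns and holds the 9387 entries of the shorter microsphere list, so it was read as microsphere keratin array 1. Minoxidil array 1 has no such values here.

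Symbols were taken from those tables, which name 23804 probesets by 1 symbol and keep only those whose fold here reached 1.30 or 2.00, so the named genes depend on the data. Intensities were turned to log2 and the brightest probeset of a gene was used. The dimmest genes, under percentile 25 of the mean, were left out. All 4 groups entered 1 fit in limma 3.58.1 (R 4.3.3), by eBayes with an intensity trend. The fit left 4 residual degrees of freedom. P-values were adjusted by Benjamini-Hochberg and called below 0.05. This fit was checked on simulated data with 200 changed genes. The simulated noise was independent and of the same size in every array, so the check does not cover an outlying array such as minoxidil array 1. For 2 arrays against 2, the smallest two-sided p of an exact permutation test is 0.333. Correlations with marker lists had exact two-sided permutation tests over 7 arrays, adjusted over 40. Alternatives changed the scaling, background correction, filter, probeset, variance model and array weights, added the replicate block or left arrays out.

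The 10 genes, the 11 other lists and the tests were chosen with earlier results of these data known. Genes named besides the 10 are up to 3 per list with the largest differences without overlap, the 8 nearest profiles, and genes said to be named after their values were seen. Of 127 genes in those lists, 16 had no name in the files. Sequences and coordinates were not used here. Figures were drawn with matplotlib 3.10.9 (Python 3.11.15).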

Additional observations from a re-analysis of the deposited data

How the results depend on the processing

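Under the alternatives that change the processing, 500 differences of the 10 genes were recomputed, of which 17 turned sign and 0 changed call. They include the replicate block without minoxidil array 1. Several keep the estimate by design and change only the test, such as the variance model and the replicate block with all arrays. Without 1 or 2 arrays, 59 of 360 differences turned sign. Many of these leave out an array of neither compared group, which cannot move the estimate. Neither share therefore measures how stable a direction is. The replicate numbers give only 2 pairs, so they were taken as shared numbers; deviations from group means correlated at 0.112 to 0.597 between groups, and with the replicate number as a block limma called 0 genes in each comparison. Against untreated skin, the mean of a gene's probesets gave 0.0199 for Acly and 0.03 for Thrsp with minoxidil, and for Gpd1 -0.0645 with keratin and -0.0173 with microsphere keratin. The second-brightest probesets, chosen after seeing the data, gave 0.041 for Acly, -0.0234 for Gpd1 and 0.13 for Thrsp with minoxidil, -0.10 for Gpd1 and -0.0174 for Slc2a4 with keratin, and -0.0558 for Slc2a4 with microsphere keratin. Quantile normalization gave -0.16 for Gpd1 with keratin, and -0.14 for Gpd1 and -0.0273 for Pcx with microsphere keratin; it left 9 and 8 of the 10 genes higher, where 54.8% and 55.5% of all genes were. With the replicate block and without minoxidil array 1, minoxidil gave 0.0407 for Acaca, 0.64 for Acly, -0.0555 for Gpd1 and 0.35 for Thrsp. With the median filter on dim genes the median between microsphere keratin and keratin was 0.0643, where that of the 10 was -0.0293. This filter left out Thrsp, Dgat2, Agpat2, Pck1 and Pcx, so 0.0643 is the median of the genes that remained. The cause of the turns of single genes was not tested.

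Without minoxidil array 2, limma called 881 genes for minoxidil (range 0 to 881 over the arrays left out) and 0 of the 10. Leaving out arrays moved the median of the 10 between microsphere keratin and keratin over -0.0422 to 0.0517. For minoxidil against untreated skin the ranges were -0.32 to 0.22 for Acaca, -0.93 to 0.85 for Acly, -0.0273 to 0.31 for Dgat2, -0.46 to 0.64 for Fasn, -0.24 to 0.24 for Gpd1, -0.0174 to 0.19 for Pck1, -0.0036 to 0.25 for Pcx, -0.26 to 1.62 for Slc2a4 and -0.37 to 0.23 for Thrsp. For keratin they were -0.0487 to 0.39 for Acaca, -0.0335 to 0.55 for Fasn, -0.13 to 0.23 for Gpd1, -0.0334 to 0.26 for Pck1, -0.0041 to 0.12 for Pcx, -0.36 to 1.52 for Slc2a4 and -0.23 to 0.41 for Thrsp. For microsphere keratin they were -0.10 to 0.26 for Gpd1, -0.0111 to 0.16 for Pck1, -0.042 to 0.044 for Pcx, -0.42 to 1.47 for Slc2a4 and -0.17 to 0.21 for Thrsp. Between microsphere keratin and keratin they were -0.17 to 0.37 for Acaca, -0.17 to 0.30 for Acly, -0.0486 to 0.0032 for Dgat2, -0.0758 to 0.30 for Fasn, -0.13 to 0.20 for Gpd1, -0.18 to 0.11 for Pck1, -0.12 to 0.0051 for Pcx, -0.44 to 0.33 for Slc2a4 and -0.39 to 0.25 for Thrsp. Agpat2 kept its direction throughout. With 2 arrays a group, only differences well above the array spread could be called.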
